A study of Mus musculus with 10 samples.

Results

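The genes described here build, fold and check proteins of the endoplasmic reticulum (ER), the compartment in which secreted and membrane proteins are made. The list held 39 genes, chosen by function with earlier results of these data known. They encode chaperones, disulfide isomerases, sensors and transcription factors of the unfolded protein response, the ER-associated degradation machinery, the protein-conducting channel and signal peptidase. Of these, 38 had a probe set of their own, out of 18193 genes with one on the array. Sec61g, a small subunit of the channel, was covered by 1 probe set that it shares with other genes and was not measured. Where a gene had several probe sets, the brightest by mean log2 signal across the 10 arrays stood for it.

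Affymetrix MOE430_2 arrays gave the RNA levels of natural killer (NK) cells, lymphocytes whose granzymes and perforin kill virus-infected and tumour cells, and of bulk splenocytes. IL-15 NK cells were NK1.1+CD3- cells flow sorted from the spleens of wild type C57Bl/6 mice and stimulated for 24 h with 100 ng/mL of recombinant mouse IL-15 (3 arrays). Resting NK cells were sorted the same way and lysed at once in Trizol (3 arrays). Splenocytes were unsorted resting spleen cells lysed without culture (4 arrays), and the labels used here name no strain, age or sex for them. The labels give no age or sex for the NK donors either. By the design text, each NK group was 3 biological replicates and the splenocytes were 2 biological samples on 2 chips each. No NK cells cultured without IL-15 were analysed here, so IL-15 and 24 h of culture cannot be told apart. NK RNA was amplified in a 2-cycle and splenocyte RNA in a 1-cycle procedure, so amplification and cell type cannot be told apart between them.

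Proteins bound for secretion enter the ER through the Sec61 channel, lose their signal peptide, receive glycans and disulfide bonds, and fold with the help of chaperones. When unfolded proteins build up, the sensors IRE1 alpha, PERK and ATF6 start the unfolded protein response, in which spliced XBP1, ATF6 and ATF4 raise the transcription of chaperones, degradation factors and, under lasting stress, the pro-apoptotic factor CHOP. In lymphocytes the programme is best known from plasma cells, and NK cells use the same route for granzymes, perforin, cytokines and surface receptors.

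A common trimmed mean signal had been set for all arrays. Signals under a floor of 179.8 units were set to it before log2 was taken, and 36 of the 38 members lay above the floor on all 10 arrays. Between 51.1% and 56.5% of signals lay above it on IL-15 NK arrays, 57.8% to 61.7% on resting NK arrays and 61.2% to 62.4% on splenocyte arrays. The sort was visible in the markers: all 11 measured NK markers were higher in resting NK cells than in splenocytes. The B-cell markers (13 genes) had a median level of at most 0.694% to 1.05% of that of splenocytes on IL-15 NK arrays, where 7 to 9 of them were at the floor, against 10.8%, 9.47% and at most 1.46% on resting NK arrays 1, 2 and 3 (0, 0 and 6 at the floor). Of the 12 macrophage and monocyte markers 7 were tested between the NK groups, and 6 were lower after IL-15. Their summed signals were 1256 to 1983 on IL-15 NK arrays, against 6838, 20764 and 29012 on resting NK arrays 1, 2 and 3, and 215339 to 239941 on splenocyte chips. The 3′ to 5′ signal ratio of Gapdh, which grows as RNA is degraded or cDNA shortened, was 2.9 to 3.81 in IL-15 NK cells, 5.88 to 9.54 in resting NK cells and 1 to 1.39 in splenocytes. All 9 measured cell division genes were higher in IL-15 NK cells than in resting NK cells. The part of these measures in the results below was not tested. In a bulk sample, fewer cells of a type and less RNA per cell cannot be told apart.

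Many of these genes carry a binding element of the unfolded protein response in their promoters. Several such stretches are shown, all from members whose levels are described further on. Those of Calr, Canx, Dnajc3 and Dnajb11 are not printed. The ER stress response element (ERSE) reads CCAAT, any 9 bases, CCACG. It was found on either strand in 9 of the 31 members with an entry in the RefSeq promoter table (29%), against 39 of all 32851 promoters (0.119%), in windows of 250 bases before to 50 bases after the start. ERSE-II, which reads ATTGG, any 1 base, CCACG, was found in Dnajb11 and Herpud1 (6.45% of members, against 0.0365% of promoters). The CCACG core alone, part of both elements, stood in 24 of the 31 member promoters (77.4%), against 32.8% of promoters. The XBP1 element UPRE (TGACG followed by TGG) was found in 0 of the 31, against 0.676% of promoters, and the cyclic AMP response element (TGACG followed by TCA) in 0, against 1.79%. The amino acid response core (TGATG, any base, AA) was found in Herpud1 and Trib3 (6.45%, against 3.97%). A match is only a run of letters, and its absence concerns these windows alone. In the RefSeq sequences (GRCm38.p6), printed 5′ to 3′ along the strand of the gene, capitals mark the element, which reads CCAAT to CCACG or, on the opposite strand, CGTGG to ATTGG, and for the ERSE-II of Herpud1 reads ATTGG to CCACG. The windows are chr12:17266471-17266529, plus strand for Pdia6, chr15:88819500-88819558, plus strand for Creld2, chr10:86705513-86705676, minus strand for Hsp90b1 with its 2 elements, chr2:34772005-34772063, plus strand for Hspa5, chr19:6046512-6046570, plus strand for Syvn1, chr10:75893222-75893280, plus strand for Derl3 and chr8:94386357-94386407, plus strand for Herpud1.
Pdia6: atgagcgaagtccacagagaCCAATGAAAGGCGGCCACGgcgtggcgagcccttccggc
Creld2: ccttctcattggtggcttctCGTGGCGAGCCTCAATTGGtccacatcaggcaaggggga
Hsp90b1: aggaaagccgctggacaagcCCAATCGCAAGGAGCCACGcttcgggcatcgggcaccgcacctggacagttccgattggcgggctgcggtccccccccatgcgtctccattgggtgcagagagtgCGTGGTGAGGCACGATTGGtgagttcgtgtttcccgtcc
Hspa5: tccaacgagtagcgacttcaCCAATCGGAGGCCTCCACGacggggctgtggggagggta
Syvn1: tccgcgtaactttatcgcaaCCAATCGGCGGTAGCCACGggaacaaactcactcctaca
Derl3: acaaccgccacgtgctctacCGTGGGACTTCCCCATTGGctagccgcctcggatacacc
Herpud1: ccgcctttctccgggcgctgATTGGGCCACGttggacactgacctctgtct

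Setting IL-15 NK against resting NK cells asks how the folding and secretory machinery differed after a day of cytokine activation. More members were higher than lower after IL-15: 15 of 38 passed the test higher (39.5%), where 14.2% of all 11433 genes tested did, and 4 passed lower (10.5%), where 12.1% of all genes did. The median log2 difference was 0.47 over the members and -0.09 over all genes tested. All 4 disulfide isomerases, 4 of 6 co-chaperones and secreted stress proteins, 3 of 6 channel and channel-associated genes and 2 of 4 signal peptidase genes were higher. Of the 6 sensors and transcription factors 0 were higher in limma (3 at an unadjusted p under 0.05), and of the 7 degradation genes 0 were higher (0 unadjusted). These counts rest on the probe set used: others were called higher for the factor Xbp1 and the degradation gene Edem1. In these roles Ern1, Ddit3 and Derl1 were lower, as was the co-chaperone gene Dnajb9. A call here means a limma adjusted p under 0.05 over all genes tested, with 3 arrays per group.

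**Figure D1:**
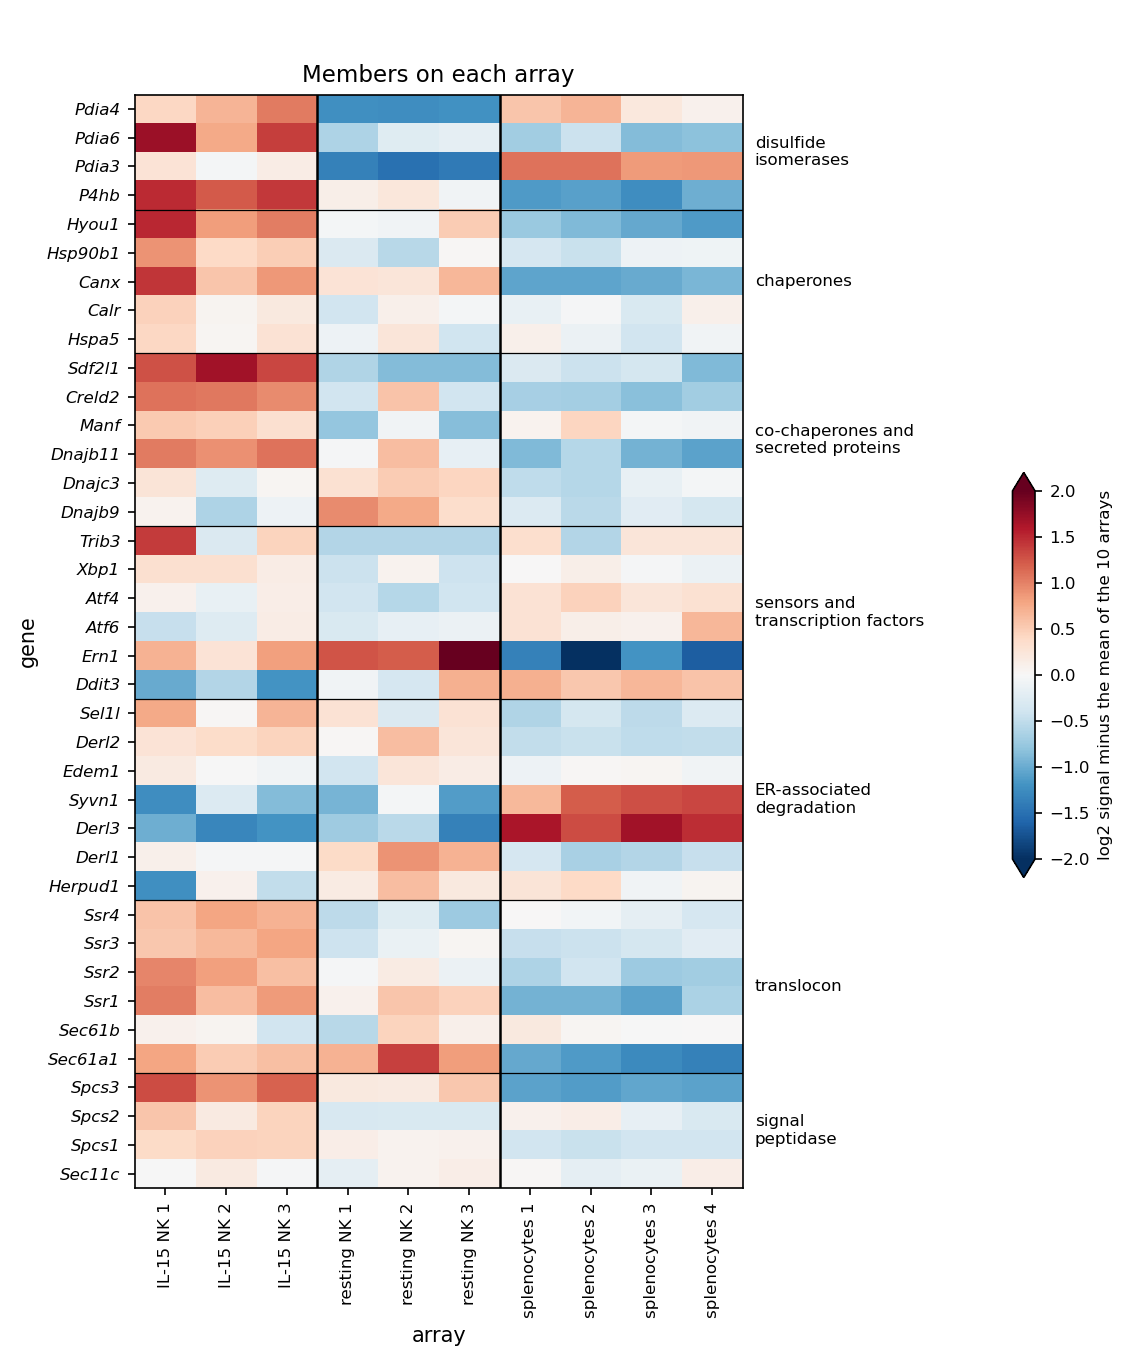
Log2 signal of the 38 measured members on each of the 10 arrays, as the difference from the gene's mean over the arrays (colour scale, clipped at -2 and 2), with genes in rows by role and arrays in columns. The disulfide isomerases and most chaperones, translocon and signal peptidase genes are redder on the 3 IL-15 NK arrays than on the 3 resting NK arrays, while Ern1 and Derl1 are reddest on resting NK arrays and Derl3 and Syvn1 on splenocyte arrays.

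Disulfide isomerases make and reshuffle the disulfide bonds of folding proteins, and the 4 genes of the list rose after IL-15, with a median log2 difference of 1.59. Pdia4, which encodes ERp72, had signals of 2551, 3075 and 3966 in IL-15 NK cells, against 813, 811 and 824 in resting NK cells. The resting arrays lay within a narrow band and the groups did not overlap (log2 difference 1.95 ± 0.25 SE, limma adjusted p = 0.00042). Pdia6, one of the genes with an ERSE shown above, had signals of 35605, 18612 and 28441 in IL-15 NK cells, against 7068, 9244 and 9653 in resting NK cells. IL-15 array 2 was the dimmest of its group and still stood above every resting array (log2 difference 1.63 ± 0.24 SE, limma adjusted p = 0.0011). Pdia3, whose product ERp57 works on glycoproteins held by calnexin and calreticulin, had signals of 9846, 7974 and 9077 in IL-15 NK cells, against 3196, 2889 and 3054 in resting NK cells. That is a 2.93-fold difference without overlap (log2 difference 1.55 ± 0.18 SE, limma adjusted p = 0.00023). A dimmer second probe set of Pdia3 showed a log2 difference of -0.01 and was not called. P4hb, the gene of the founding protein disulfide isomerase, was 2.44-fold higher, with signals of 50985, 42554 and 48438 in IL-15 NK cells, against 19791, 21237 and 17306 in resting NK cells (log2 difference 1.28 ± 0.17 SE, limma adjusted p = 0.00049). All 4 calls held under each of 15 other settings of the analysis, such as another floor or normalization or 1 array left out.

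**Figure D2:**
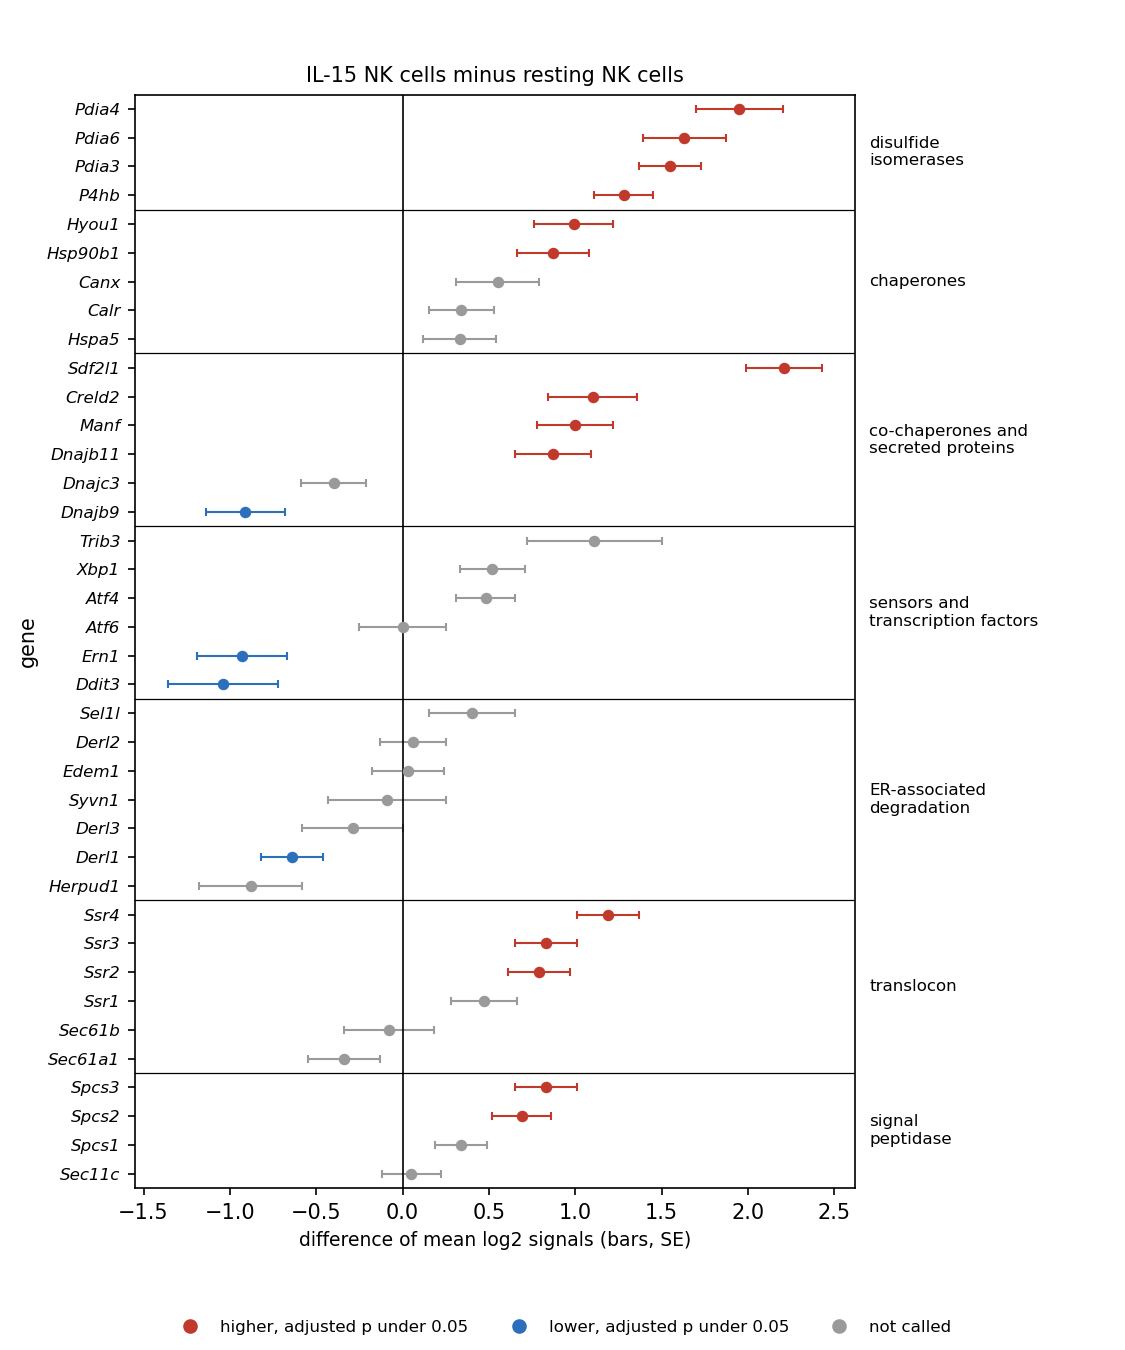
Difference of mean log2 signals, IL-15 NK minus resting NK cells (n = 3 arrays each), for the 38 measured members by role, with SE bars and colours for the limma call. Values run from -1.04 for Ddit3 to 2.21 for Sdf2l1, and the 4 disulfide isomerases lie between 1.28 and 1.95.

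Of the 5 genes of the main chaperones, Hyou1 and Hsp90b1 were higher after IL-15, with a median log2 difference of 0.55. Hyou1 encodes a large relative of Hsp70 that reloads the chaperone BiP with ATP. Its signals were 18686, 11718 and 13291 in IL-15 NK cells, against 6398, 6197 and 9301 in resting NK cells, without overlap (log2 difference 0.99 ± 0.23 SE, limma adjusted p = 0.01). A dimmer Hyou1 probe set had a similar difference of 0.96 and was not called. With the mean of all probe sets the Hyou1 call was lost (log2 difference 0.65, limma adjusted p = 0.051). Hsp90b1 encodes Grp94, the ER form of Hsp90, and has a pair of ERSEs in its promoter window. It had signals of 44095, 30983 and 33269 in IL-15 NK cells, against 19310.0, 16148 and 23965 in resting NK cells (log2 difference 0.87 ± 0.21 SE, limma adjusted p = 0.012), and its adjusted p was 0.053 without IL-15 array 1. Hspa5, which encodes BiP and is the classic target of the ERSE, was not called. Its signals were 67942, 52066 and 62068 in IL-15 NK cells, against 47620.1, 60225 and 38602 in resting NK cells, and resting array 2 lay above the dimmest IL-15 array (log2 difference 0.33 ± 0.21 SE, limma adjusted p = 0.28). Calr and Canx encode the lectin chaperones calreticulin and calnexin, which hold newly glycosylated proteins. Their differences were 0.34 (limma adjusted p = 0.22) and 0.55 (limma adjusted p = 0.12) on the log2 scale, and neither was called.

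Among co-chaperones and secreted stress proteins, Sdf2l1, Creld2, Manf and Dnajb11 were higher after IL-15 and Dnajb9 was lower. Sdf2l1, whose product forms a complex with ERdj3, differed most of all members. It had signals of 4338, 5809 and 4549 in IL-15 NK cells, against 1182, 991 and 980.5 in resting NK cells. Every IL-15 array stood far above every resting array, a 4.64-fold difference of geometric means (log2 difference 2.21 ± 0.22 SE, limma adjusted p = 0.00011). Dnajb11, the gene of ERdj3 itself, which brings clients to BiP, had signals of 9850.1, 9005 and 10251 in IL-15 NK cells, against 4749, 7327 and 4288 in resting NK cells (log2 difference 0.87 ± 0.22 SE, limma adjusted p = 0.016). Resting array 2 was the brightest of its group, and the call was lost on leaving out any 1 of 3 arrays, with adjusted p up to 0.063. Creld2 and Manf encode proteins that are released from stressed cells. Creld2 had signals of 8019, 7790.0 and 7246 in IL-15 NK cells, against 2867, 5609.8 and 2879.8 in resting NK cells (log2 difference 1.10 ± 0.26 SE, limma adjusted p = 0.012), and Manf had 12802, 12298 and 11059.8 in IL-15 NK cells, against 5205, 8441 and 4914 in resting NK cells (2.01-fold, limma adjusted p = 0.0084, SE of the log2 difference 0.22). For both genes the IL-15 arrays were close together, whereas resting array 2 stood well above resting arrays 1 and 3. The calls of Creld2, Manf, Dnajb11, Hyou1 and Hsp90b1, and those of all 4 members that were lower after IL-15 (Dnajb9, Ern1, Ddit3 and Derl1), were lost when every gene was tested without the filter on dim genes.

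Dnajb9 encodes ERdj4, a co-chaperone that restrains the sensor IRE1 alpha and serves degradation. It had signals of 8016, 4956 and 7096 in IL-15 NK cells, against 14640.2, 12951 and 9772 in resting NK cells (log2 difference -0.91 ± 0.23 SE, limma adjusted p = 0.016). The groups did not overlap, but the call was lost without IL-15 array 2 or resting array 1 (adjusted p of 0.055 and 0.061). Dnajc3, which encodes an inhibitor of the kinase PERK that also acts as a co-chaperone of BiP, was not called. Its signals of 7442, 5171 and 6392 in IL-15 NK cells all lay under the 7644, 8872 and 8336 of resting NK cells (log2 difference -0.40 ± 0.19 SE, limma adjusted p = 0.15).

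**Figure D3:**
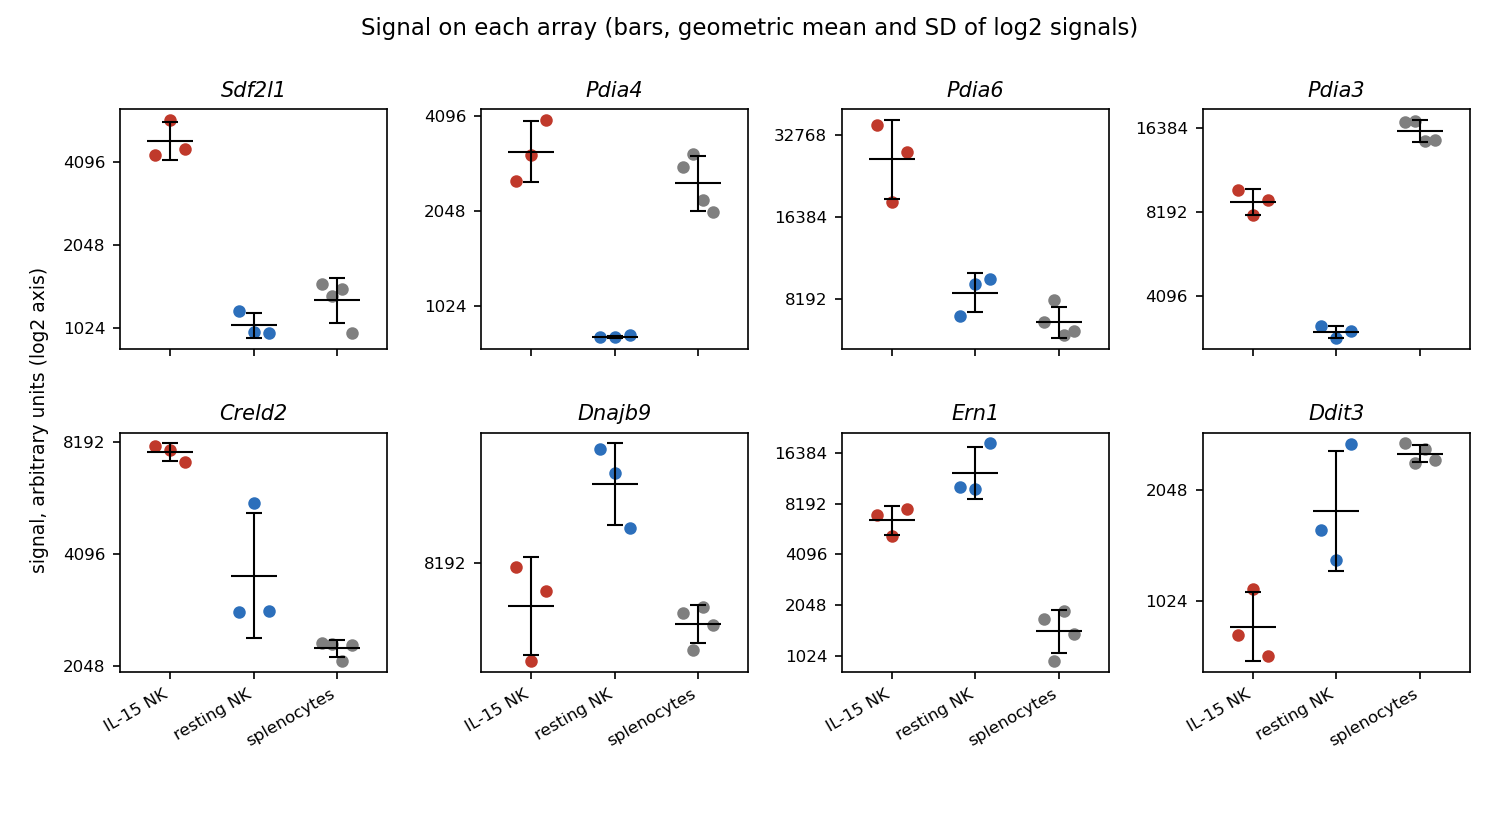
Signal of 8 members on each array (points, log2 axis, arbitrary units) with the geometric mean and the SD of log2 signals (bars), for 3 IL-15 NK, 3 resting NK and 4 splenocyte arrays. Sdf2l1, Pdia4, Pdia6, Pdia3 and Creld2 lie higher on IL-15 arrays than on resting arrays, and Dnajb9, Ern1 and Ddit3 lie lower. Resting array 2 stands above the other resting arrays for Creld2, with a signal of 5609.8.

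Of the 6 sensors and transcription factors, Ern1 and Ddit3 were lower after IL-15 and the other 4 did not pass. Ern1 encodes IRE1 alpha, the kinase and nuclease that splices Xbp1 mRNA. Its signals were 6966, 5226 and 7620.4 in IL-15 NK cells, against 10283, 10036 and 18663 in resting NK cells. Resting array 3 was the brightest and the groups did not overlap (log2 difference -0.93 ± 0.26 SE, limma adjusted p = 0.024). Another Ern1 probe set was also called lower, by -1.02 on the log2 scale. A dimmer Ern1 probe set went the other way, with a log2 difference of 0.38, and was not called. With the mean of all probe sets the Ern1 call was lost (log2 difference -0.38, limma adjusted p = 0.22). Ddit3 encodes CHOP, and had signals of 827, 1106 and 726 in IL-15 NK cells, against 1599, 1326 and 2726 in resting NK cells (log2 difference -1.04 ± 0.32 SE, limma adjusted p = 0.038). The second Ddit3 probe set had a log2 difference of -0.78 and was not called. The Ern1 call was lost on leaving out any 1 of 3 arrays (adjusted p of 0.055 to 0.089) and the Ddit3 call on leaving out any 1 of 4 (0.06 to 0.12). Xbp1, whose spliced form drives much of the response, had signals of 24179, 23956 and 21299 in IL-15 NK cells, against 14246, 20319 and 14473 in resting NK cells. All IL-15 arrays lay above all resting arrays, and the difference did not pass (log2 difference 0.52 ± 0.19 SE, limma adjusted p = 0.066). Spliced and unspliced Xbp1 were not measured separately. Atf4, the factor translated when eIF2 alpha is phosphorylated, had signals of 13228, 11257 and 13721 in IL-15 NK cells, against 9512, 8349.5 and 9455 in resting NK cells, again without overlap and without a call (log2 difference 0.48 ± 0.17 SE, limma adjusted p = 0.058). Atf6, the gene of the membrane-bound factor, had a difference of 0.00 ± 0.25 SE. Trib3, a pseudokinase gene induced by ATF4 and CHOP, had signals of 715, 221 and 367 in IL-15 NK cells and was under the floor on all 3 resting arrays, so it was at least 2.15-fold higher, without passing (limma adjusted p = 0.06).

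Among the 7 genes of ER-associated degradation, which returns misfolded proteins to the cytosol for the proteasome, Derl1 was lower after IL-15 and 6 were not called. The median log2 difference of the group was -0.09. Derl1, a rhomboid-like membrane protein of the retrotranslocation complex, had signals of 26517, 24323 and 24291 in IL-15 NK cells, against 32403, 45965 and 40184 in resting NK cells (log2 difference -0.64 ± 0.18 SE, limma adjusted p = 0.024). The groups did not overlap, but the call was lost on leaving out any 1 of 4 arrays (adjusted p of 0.055 to 0.091), and the other 3 probe sets of Derl1 had differences of 0.03 to 0.63 and were not called. Derl2, its close relative, had signals of 9443, 10052 and 10705 in IL-15 NK cells, against 8041, 12018 and 9268 in resting NK cells, and the groups overlapped (log2 difference 0.06 ± 0.19 SE, limma adjusted p = 0.85). Herpud1, a membrane scaffold of the complex whose ERSE-II is shown above, had signals of 3004, 7475 and 4958 in IL-15 NK cells, against 7927, 10793 and 8091 in resting NK cells. IL-15 arrays were spread widely but all lay under the resting arrays, and the difference did not pass (log2 difference -0.88 ± 0.30 SE, limma adjusted p = 0.055). Syvn1, the ubiquitin ligase HRD1, and its partner Sel1l had differences of -0.09 and 0.40. Edem1, which hands over glycoproteins for degradation, had a difference of 0.03, and Derl3, the derlin typical of secretory cells, one of -0.29; Derl3 was dim in both NK groups.

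In the entry route, 3 of 4 genes of the translocon-associated protein complex were higher, and both measured genes of the channel itself were not called. Ssr2, Ssr3 and Ssr4, which encode subunits of that complex beside the channel, passed, and their calls held under the same 15 settings. Ssr4 had signals of 19532, 22569 and 21025 in IL-15 NK cells, against 9093, 11009 and 7868 in resting NK cells (log2 difference 1.19 ± 0.18 SE, limma adjusted p = 0.0011). Ssr3 had signals of 18134, 19676 and 21756 in IL-15 NK cells, against 9418, 11453 and 12938 in resting NK cells (log2 difference 0.83 ± 0.18 SE, limma adjusted p = 0.0075), and its second probe set was higher as well, by 0.87. For Ssr2 the signals were 9462, 8541 and 7312 in IL-15 NK cells, against 4744, 5361 and 4455 in resting NK cells (log2 difference 0.79 ± 0.18 SE, limma adjusted p = 0.0095). None of these 3 genes overlapped between the groups. The fourth subunit gene, Ssr1, had signals of 22046, 16728 and 19682 in IL-15 NK cells, against 11484, 16035 and 14984 in resting NK cells, which did not overlap, and missed the threshold (log2 difference 0.47 ± 0.19 SE, limma adjusted p = 0.1). Sec61a1, the gene of the pore-forming subunit, had signals of 42068, 34613 and 37014 in IL-15 NK cells, against 39415, 63140.3 and 43577 in resting NK cells (log2 difference -0.34 ± 0.21 SE, limma adjusted p = 0.27), with resting array 2 far above the rest. Sec61b, a small subunit, had a difference of -0.08 ± 0.26 SE.

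Signal peptidase removes the signal peptide as a protein enters, and 2 of its 4 genes were higher. Spcs3 had signals of 40150.1, 30214 and 36799.7 in IL-15 NK cells, against 18521, 18454 and 23417 in resting NK cells (log2 difference 0.83 ± 0.18 SE, limma adjusted p = 0.0084). Spcs2 had 21597, 16673 and 20073 in IL-15 NK cells, against 11858, 12030.4 and 11967 in resting NK cells, where the resting arrays hardly differed (log2 difference 0.69 ± 0.17 SE, limma adjusted p = 0.012). Its call was lost without IL-15 array 1 or 3 (adjusted p of 0.056 and 0.058). The second Spcs2 probe set had a difference of 0.08 and was not called. With the mean of all probe sets the Spcs2 call was lost (log2 difference 0.39, limma adjusted p = 0.089). Spcs1 was uniform within groups, with 37317, 39389 and 39359 in IL-15 NK cells, against 31530.3, 30117 and 30324 in resting NK cells, and was not called (log2 difference 0.34 ± 0.15 SE, limma adjusted p = 0.14). Sec11c, a catalytic subunit, had a difference of 0.05 ± 0.17 SE.

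Probe sets of the same gene often differed in their call. Members had 93 probe sets in all, and 26 members had more than 1 that was tested. Of the 9 members called with another tested probe set, all the others made the same call for 1, Ssr3, and an opposite call was made for 0. Conversely, 7 of the 19 members without a call had another probe set that was called higher: Hspa5 (1.25), Calr (0.67 and 0.75), Canx (1.99), Xbp1 (0.90 and 1.26), Edem1 (1.27), Sec61a1 (0.99) and Ssr1 (0.96). For Atf4 (-0.83) and Sec11c (-1.15) another probe set was called lower. These are log2 differences with limma adjusted p under 0.05 over the 20980 probe sets tested. The second Hspa5 probe set had signals of 15412, 11190.0 and 16606 in IL-15 NK cells, against 6212, 6015 and 5667 in resting NK cells, without overlap. The brighter one, used above, overlapped. Of the chosen probe sets, 6 carry the manufacturer's suffix for several transcripts and 2 that for possible cross-hybridisation (Ssr3 and Trib3).

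**Figure D4:**
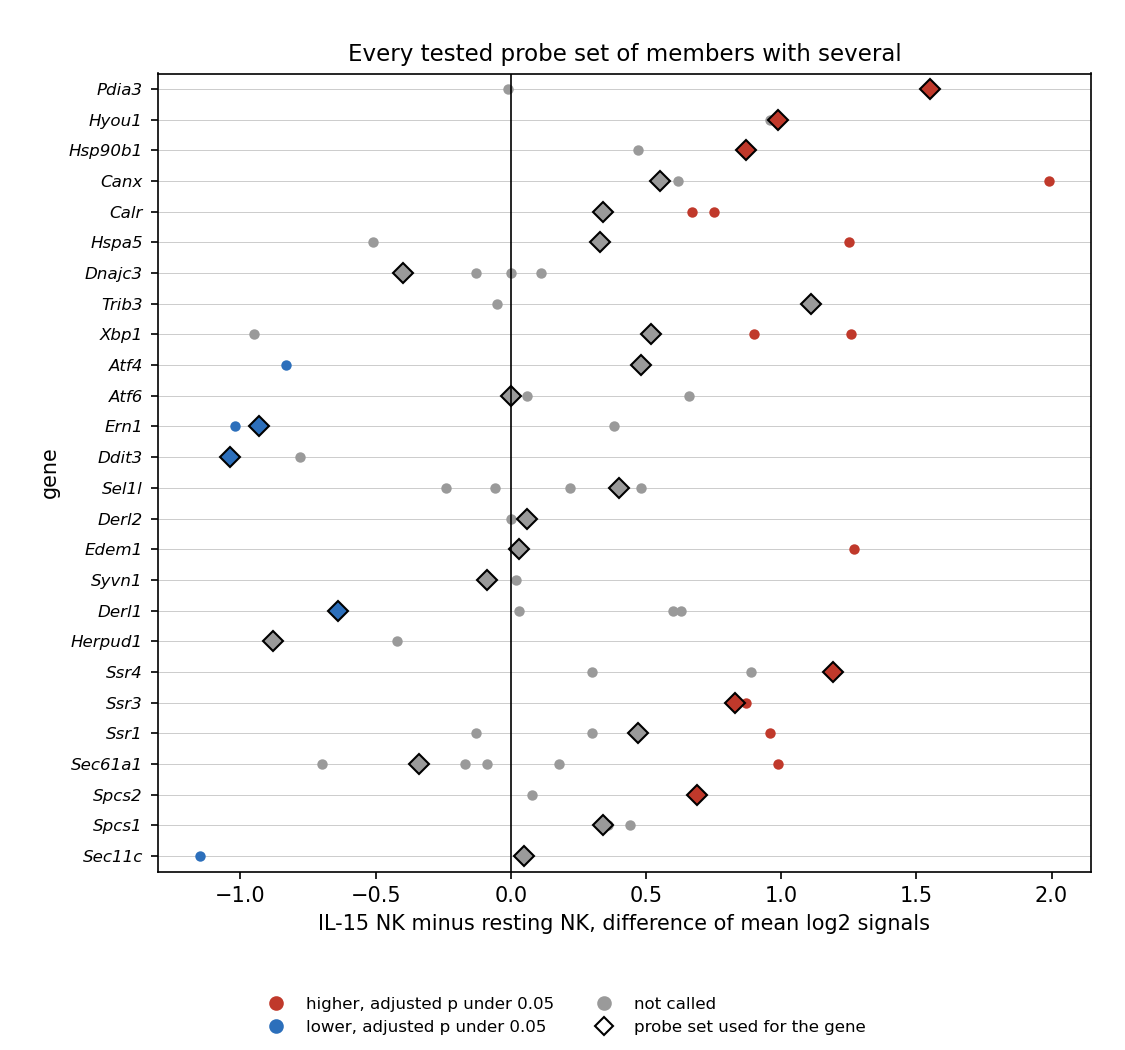
Difference of mean log2 signals, IL-15 NK minus resting NK cells (n = 3 arrays each), for every tested probe set of the 26 members with several; diamonds mark the probe set used for the gene and colours the limma call. Probe sets of Canx, Hspa5, Xbp1 and Edem1 that were not used reach 1.99, 1.25, 1.26 and 1.27, while the second probe set of Pdia3 lies at -0.01.

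Arrays of an NK group ranked alike for many members. On IL-15 array 1, 24 of the 38 members (63.2%) had the highest signal of their group, where 34.3% of all genes tested did, and IL-15 array 2 was lowest for 20 (52.6%, against 39.3%). Among resting arrays, array 2 was highest for 21 members (55.3%), where 35.1% of all genes were, and array 1 was lowest for 17 (44.7%, against 26.9%). Resting array 2 also had the highest 3′ to 5′ ratios of all arrays, 9.54 for Gapdh and 6.51 for Actb. Without resting array 2, 17 members were higher and 4 lower, and without resting array 3, which had the highest macrophage marker signal, 15 were higher and 1 lower. For fits with arrays left out, the shares of all genes called are not given, so these counts cannot be set beside them. With resting arrays 1 and 2 both left out, which hold most of the B-cell marker signal, 12 were higher and 3 lower, a count added after seeing the data that rests on 1 resting array and assumes that it varies as the others do. Hyou1, Hsp90b1, Dnajb9, Ssr3, Spcs2 and Spcs3 lost their call there, with limma adjusted p of 0.054 to 0.19. By the mean of the probe set used, Ddit3 was brighter on the splenocyte chips than on the resting NK arrays. The other members lower after IL-15, Ern1, Dnajb9 and Derl1, were dimmer there. The second Ddit3 probe set went the other way (resting NK minus splenocytes 0.87, not called). Further Derl1 probe sets had log2 differences of -1.40 (called lower), -0.16 (not called) and 1.13 (called higher) there.

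Members with an ERSE or ERSE-II were set beside the rest. Of these 11, 4 were higher after IL-15 (Pdia6, Creld2, Hsp90b1 and Dnajb11), where 14.2% of all genes tested were. By limma 0 of the 11 were lower (1, Herpud1, at an unadjusted p under 0.05), where 12.1% of all genes were. Their median log2 difference was 0.34, with values from -0.88 for Herpud1 to 1.63 for Pdia6. Of the 19 measured members whose promoter window held neither, 7 were higher and 3 lower, with a median of 0.48. Sdf2l1, Pdia4, Pdia3 and P4hb, with some of the larger differences, belong to this second set. No test was made between these sets.

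A further 82 genes of the same pathways had been listed by function, with earlier results of these data known. Of them, 79 were on the array and 74 were tested. Of these, 19 were higher after IL-15 (25.7%, against 14.2% of all genes tested) and 8 lower (10.8%, against 12.1%), with a median log2 difference of 0.22. In the glycosylation group 8 of 15 genes were higher (53.3%) and 0 lower by limma (10 and 0 at an unadjusted p under 0.05), with a median of 0.71. Mogs, the glucosidase that trims the first glucose from new glycans, had signals of 15754, 14824 and 16456 in IL-15 NK cells, against 6494, 4432 and 5443 in resting NK cells, far apart (log2 difference 1.54 ± 0.19 SE, limma adjusted p = 0.00031). Dpagt1, which starts the assembly of the glycan, was 2.54-fold higher (log2 difference 1.34 ± 0.23 SE, limma adjusted p = 0.0024). In the folding group 3 of 17 were higher (17.6%) and 2 lower (11.8%), led by Prdx4, an ER peroxidase that helps disulfide formation. It had signals of 1534, 1566 and 1433 in IL-15 NK cells, against 292, 325 and 369 in resting NK cells, which did not overlap (log2 difference 2.21 ± 0.26 SE, limma adjusted p = 0.00029). Fkbp2, a prolyl isomerase gene, was 2.56-fold higher (limma adjusted p = 0.0013). Other genes of the disulfide isomerase family in this group were not called: Txndc5 (0.16), Tmx1 (-0.02), Erp44 (0.31), Erp29 (0.66), Txndc11 (0.65) and Dnajc10 (-0.51). Pdia5 was too dim in NK cells to be tested. Of 13 degradation genes, 3 were higher and 2 lower, with Vcp, the ATPase that pulls proteins out of the membrane, at 1.08 and its cofactor gene Nploc4 at 1.18. Of 16 targeting and translocation genes, 4 were higher and 1 lower, with the channel paralog Sec61a2 at 1.39 and the signal recognition particle receptor gene Srprb at 1.07. The Sec61a2 call was lost on leaving out any 1 of 3 arrays (limma adjusted p of 0.058 to 0.11). The Srprb call was lost on leaving out 1 array (limma adjusted p = 0.064).

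In the stress-sensing group 1 of 13 tested genes was higher (7.69%) and 3 were lower (23.1%), where 14.2% and 12.1% of all genes were. The higher gene was Asns, asparagine synthetase, a target of ATF4. Its signals were 1687, 551 and 1528 in IL-15 NK cells, against 166, 208 and 126 in resting NK cells, where only array 2 was above the floor, so that it was at least 5.95-fold higher (log2 difference 2.57 ± 0.41 SE, limma adjusted p = 0.0015). Ppp1r15a, the regulatory subunit that directs a phosphatase to eIF2 alpha, was 4.34-fold lower (log2 difference -2.12 ± 0.41 SE, limma adjusted p = 0.0042). It had signals of 377, 398 and 509 in IL-15 NK cells, against 2712, 2519.6 and 912 in resting NK cells, and resting array 3 lay well under the other resting arrays. With resting arrays 1 and 2 left out, the log2 difference was -1.10 (limma adjusted p = 0.072).

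Set against bulk splenocytes, more members were higher than lower in both NK groups by the probe set used for each gene. The comparisons share their splenocyte arrays. In IL-15 NK cells 19 of 38 members were higher than in splenocytes, where 20.8% of all 12465 genes tested were, and 4 were lower, where 23.5% of all genes were. In resting NK cells 14 were higher, where 17.1% of all 12938 genes tested were, and 5 were lower, where 21.5% were. The median log2 difference of the members was 0.49 for IL-15 NK cells and 0.10 for resting NK cells, where all genes tested had medians of -0.10 and -0.06. Chips were averaged in pairs into 2 splenocyte samples under each possible pairing, and the largest p was kept. The counts depend on the probe set used. For resting NK cells, 4 called members had another probe set called the opposite way (Canx, Dnajc3, Atf4 and Derl1). Of the 19 uncalled there, 6 had another probe set called lower and 1 had another called higher. For IL-15 NK cells these numbers were 2, 3 and 2. With the mean of all probe sets the resting NK counts were nearly even, as given below.

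**Figure D5:**
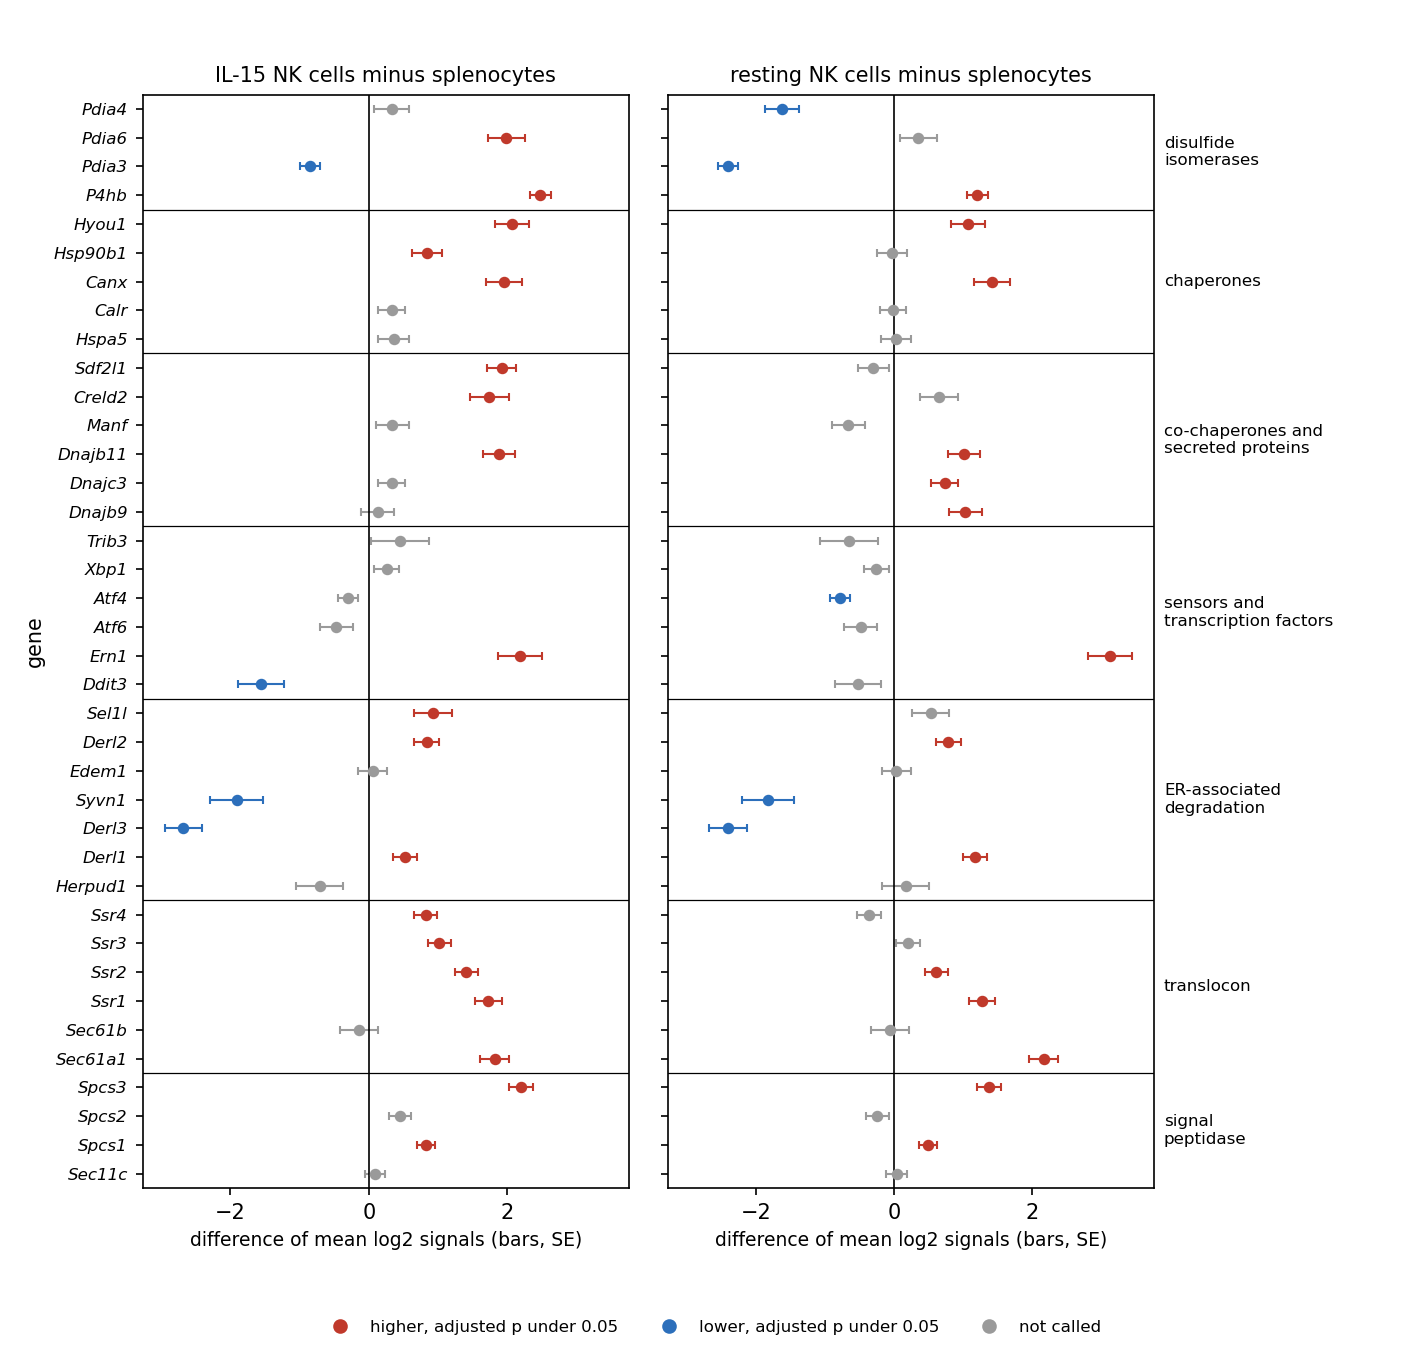
Difference of mean log2 signals of IL-15 NK cells minus splenocytes (left) and resting NK cells minus splenocytes (right) for the 38 measured members by role, with SE bars and colours for the limma call; n = 3 arrays per NK group and 2 splenocyte samples on 4 chips. Ern1 lies highest in resting NK cells, at 3.12, and Derl3 lowest in IL-15 NK cells, at -2.68.

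Ern1 differed most of all members between resting NK cells and splenocytes, whereas Derl3, P4hb and Spcs3 differed more than Ern1 between IL-15 NK cells and splenocytes. Its splenocyte signals were 1688, 951, 1887 and 1380.3, so that IL-15 NK cells were 4.56-fold (log2 difference 2.19 ± 0.32 SE, limma adjusted p = 0.00096) and resting NK cells 8.7-fold higher (log2 difference 3.12 ± 0.32 SE, limma adjusted p = 0.00018). No NK array overlapped with a splenocyte chip. Atf4, by contrast, had 15304, 17206, 14780.5 and 15359 in splenocytes and was lower in resting NK cells (log2 difference -0.78 ± 0.15 SE, limma adjusted p = 0.0032), though another of its probe sets was called the opposite way. Ddit3, with 2744, 2424, 2643 and 2481 in splenocytes, was lower in IL-15 NK cells (log2 difference -1.56 ± 0.33 SE, limma adjusted p = 0.0059) and not called in resting NK cells (-0.52, limma adjusted p = 0.26). The second Ddit3 probe set had log2 differences of 0.09 in IL-15 NK cells and 0.87 in resting NK cells and was called in neither.

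Among degradation genes, Derl3 and Syvn1 were lower in both NK groups, whereas Derl1 and Derl2 were higher. Derl3, with an ERSE shown above, had signals of 234, 186 and 201 in IL-15 NK cells and 281, 315 and 67.3 in resting NK cells, against 1433, 1137, 1464 and 1289 in splenocytes. Resting NK array 3 was under the floor, so that IL-15 NK cells were 6.43-fold lower (log2 difference -2.68 ± 0.27 SE, limma adjusted p = 0.00013) and resting NK cells at least 5.27-fold lower (log2 difference -2.40 ± 0.27 SE, limma adjusted p = 0.00027). The plasma cell markers other than members (10 genes) had summed signals of 2683 to 4836 on IL-15 NK arrays and 8219 to 12494 on resting NK arrays, against 106427 to 121302 on splenocyte chips. Of these markers 6 to 8 were at the floor on IL-15 NK arrays and 4 to 7 on resting NK arrays. Prdm1, which is among them, was called higher in both NK groups than in splenocytes, and all the others were called lower. Prdm1 gave 2165 to 3733 of the sum on IL-15 NK arrays and 5696 to 7494 on resting NK arrays, against 745 to 1007 on splenocyte chips. The part of these markers in the Derl3 difference was not tested. Syvn1 had signals of 1576, 3057 and 2035 in IL-15 NK cells and 1935, 3623 and 1698 in resting NK cells, against 5804, 8567, 9036 and 9359.8 in splenocytes, with differences of -1.91 ± 0.38 SE and -1.82 ± 0.38 SE. Derl2 had 5562, 5760.3, 5520.0 and 5560.3 in splenocytes. It was 1.8-fold higher than there in IL-15 NK cells (log2 difference 0.84 ± 0.18 SE, limma adjusted p = 0.0057). In resting NK cells it was 1.72-fold higher (log2 difference 0.78 ± 0.18 SE, limma adjusted p = 0.0092). Derl1 had 19616, 15852, 16443 and 18037 in splenocytes. It was 1.44-fold higher than there in IL-15 NK cells (log2 difference 0.52 ± 0.17 SE, limma adjusted p = 0.038). In resting NK cells it was 2.24-fold higher (log2 difference 1.17 ± 0.17 SE, limma adjusted p = 0.0011). Another Derl1 probe set was called lower than in splenocytes in both NK groups, and the IL-15 NK call was lost on leaving out any 1 of 6 arrays (adjusted p of 0.053 to 0.098).

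The disulfide isomerases did not move together against splenocytes. Pdia3 had 17279, 17427, 14807 and 14900.1 in splenocytes and was 1.8-fold lower in IL-15 NK cells (log2 difference -0.85 ± 0.15 SE, limma adjusted p = 0.0022) and 5.27-fold lower in resting NK cells (log2 difference -2.40 ± 0.15 SE, limma adjusted p = 1.1e-05). With the mean of its probe sets the IL-15 NK difference was -0.35 and was not called. Pdia4, with 2818, 3092, 2218 and 2029 in splenocytes, was 3.07-fold lower in resting NK cells (log2 difference -1.62 ± 0.25 SE, limma adjusted p = 0.0011), while IL-15 NK arrays overlapped with splenocyte chips (log2 difference 0.33 ± 0.25 SE, limma adjusted p = 0.31). P4hb was higher in both NK groups, with 8318, 8557, 7718 and 9219.9 in splenocytes (5.59-fold in IL-15 NK cells and 2.3-fold in resting NK cells). Pdia6 had 6737, 8059, 6001 and 6221 in splenocytes. It was 3.97-fold higher than there in IL-15 NK cells (log2 difference 1.99 ± 0.27 SE, limma adjusted p = 0.00061). In resting NK cells it was not called (0.35, limma adjusted p = 0.34).

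Of the 11 chaperone and co-chaperone genes, 6 were higher than in splenocytes in IL-15 NK cells and 5 in resting NK cells. Of all genes tested, 20.8% and 17.1% were higher and 23.5% and 21.5% lower, in the same order. By limma 0 of the 11 were lower (1, Manf, in resting NK cells at an unadjusted p under 0.05). This count rests on the probe set used for each gene: in resting NK cells another probe set was called lower for 5 of the 11, Hspa5 (-1.41), Calr (-1.01 and -0.63), Hsp90b1 (-0.87), Canx (-1.48) and Dnajc3 (-0.84 and -1.10), and in IL-15 NK cells for 1, Dnajc3 (-0.98 and -1.15). Canx had 12044, 11974, 12379.7 and 13184 in splenocytes. It was 3.9-fold higher than there in IL-15 NK cells (log2 difference 1.96 ± 0.26 SE, limma adjusted p = 0.00051). In resting NK cells it was 2.66-fold higher (log2 difference 1.41 ± 0.26 SE, limma adjusted p = 0.0031). Hyou1, with 3929, 3571, 3214 and 2997 in splenocytes, was 4.19-fold higher in IL-15 NK cells and 2.1-fold higher in resting NK cells (log2 differences 2.07 ± 0.25 and 1.07 ± 0.25 SE). Dnajb11 had 2599.5, 3204, 2511 and 2269 in splenocytes, with log2 differences of 1.88 ± 0.23 SE in IL-15 NK cells and 1.01 ± 0.23 SE in resting NK cells, both called. Both genes stood above all splenocyte chips on every NK array. Hsp90b1, Sdf2l1 and Creld2 were called higher than in splenocytes in IL-15 NK cells (log2 differences 0.84, 1.92 and 1.74) and not in resting NK cells (-0.03, -0.30 and 0.65). The converse held for Dnajb9 (0.13 in IL-15 NK cells and 1.03 in resting NK cells) and, for the probe set used, Dnajc3 (0.33 and 0.73, in the same order). With the mean of all probe sets of a gene the resting NK calls of Hyou1 (0.45), Canx (0.28) and Dnajc3 (0.00) and the IL-15 NK call of Hsp90b1 (0.22) were lost, with limma adjusted p of 0.13 to 0.99.

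Of the 10 measured genes of the translocon and signal peptidase, 7 were higher than in splenocytes in IL-15 NK cells and 5 in resting NK cells. Of all genes tested, 20.8% and 17.1% were higher and 23.5% and 21.5% lower, in the same order. By limma 0 of the 10 were lower in either group, also at an unadjusted p under 0.05. Sec61a1 had 11999, 11104, 10152 and 9586 in splenocytes. It was 3.54-fold higher than there in IL-15 NK cells (log2 difference 1.82 ± 0.21 SE, limma adjusted p = 0.00027). In resting NK cells it was 4.47-fold higher (log2 difference 2.16 ± 0.21 SE, limma adjusted p = 0.00013). Spcs3, with 7759, 7506, 7879.7 and 7716 in splenocytes, was 4.6-fold higher in IL-15 NK cells and 2.59-fold higher in resting NK cells. Ssr1 had 5668, 5649, 5163 and 7007 in splenocytes, and log2 differences of 1.73 ± 0.19 SE in IL-15 NK cells and 1.27 ± 0.19 SE in resting NK cells. Spcs1, with 22003, 21119.7, 21893 and 22130.2 in splenocytes, had log2 differences of 0.83 ± 0.13 SE and 0.49 ± 0.13 SE, in the same order of NK groups. All NK arrays of these 4 genes lay above all splenocyte chips. With the mean of all probe sets of a gene, the log2 difference of Spcs1 turned to -0.03 in IL-15 NK cells and -0.41 in resting NK cells, and the resting NK call of Ssr1 was lost (0.09); the resting NK call of Spcs1 was also lost after quantile normalization. Ssr2 was higher in both NK groups (1.41 in IL-15 NK cells and 0.61 in resting NK cells), Ssr3 and Ssr4 were called in IL-15 NK cells (1.02 and 0.82; the Ssr4 call was lost with the mean of all probe sets), and Sec61b, Spcs2 and Sec11c were called in neither. Across all 3 comparisons, 9 members had no call.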

How the data were processed

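The authors deposited 1 linear intensity (signal) for each of 45101 probe sets and 10 arrays, using GCOS 1.4 according to the submitters' processing notes. How probe signals were summarised and to what target they were scaled is not given in the sources used here. Every array of the deposited table had a mean of 1500 after trimming 2% at each end, so no further scaling was applied. Such scaling shows levels relative to the rest of the RNA, and the number of arrays limits the precision.

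GEO's platform annotation named 1 gene for 34945 probe sets, several for 932 and none for 9224, of which 64 were controls and left out. The floor was the median over arrays of the 40th percentile, and a gene was tested where 3 or more of the arrays compared lay above it. The test was limma (version 3.58.1, R 4.3.3), using lmFit and then eBayes with a trend on intensity, 2-sided, and p-values were adjusted by Benjamini-Hochberg over all genes tested. The NK groups were compared with each other over 6 arrays without a replicate block. All 3 groups shared a variance in the splenocyte comparisons. Folds are ratios of geometric means, and a fold against a group with an array under the floor is a lower bound. Nothing beyond the design text says how replicates were obtained. The fit was tested on simulated data.

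The members, the lists of other pathway genes and the markers were chosen with earlier results of these data known. Per-array values are given, in each role, for up to 3 called members with the largest difference after IL-15, the brightest uncalled one and up to 2 with the largest difference between resting NK cells and splenocytes; other members are named by their values, and up to 2 called genes per group of other pathway genes. Alternatives were no floor, a floor at the 50th percentile, no filter, quantile normalization, a common median, the mean of all probe sets, probe sets singly, no trend, a replicate block, other groupings of arrays, and leaving out each array. Promoters come from RefSeq (GRCm38.p6). The retrieval signals of the proteins were not analysed here.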

Additional observations from a re-analysis of the deposited data

Results flagged for a closer look

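In 48 groups of 4 splenocyte chips (members and other named pathway genes) the highest and lowest values were set against the rest, and 2 showed a chip far from the others. Chance alone does so in about 1 of 20 groups. For Creld2, splenocyte chip 3 was lowest at 2116, against 2334 to 2370 on the other 3 chips, a gap of 0.866 of the range on the log2 scale. For Trib3, splenocyte chip 2 was under the floor at 132.5, against 319 to 343 on the other 3, a gap of 0.888 of the range.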

How the results depend on the processing

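Comparing the NK groups, 9 of the 19 member calls held under all 15 other settings, all of them higher; testing every gene without the filter on dim genes gave 11 calls, 11 higher and 0 lower: 9 of the 19 calls were lost and 1, Spcs1, was gained, and the cause was not tested. Leaving out single arrays gave 13 to 21 calls, 12 to 17 higher and 1 to 4 lower: 1 lower without IL-15 array 1 or resting array 3, and 2 without IL-15 array 2 or 3 or resting array 1. Against splenocytes 12 of 19 calls of resting NK cells and 17 of 23 of IL-15 NK cells held under 16. The shares of all genes called are given for the reported fit alone. Changes of the member counts under other settings therefore cannot be set beside those of all genes. For resting NK cells the mean of all probe sets gave 9 higher and 8 lower, probe sets taken singly 10 lower, and leaving out single arrays 5 to 8 lower, with 8 without resting array 2; the cause was not tested. With resting arrays 1 and 2 left out, an alternative chosen after seeing the data, the counts were 12 higher and 3 lower against IL-15 NK cells, and 11 higher and 7 lower against splenocytes. Under the mean of all probe sets, which mixes probe sets that differ, the log2 difference turned to 0.15 for Derl1 and -0.55 for Sec11c (IL-15 NK minus resting NK), to 0.35 for Atf4, -0.72 for Edem1, -0.86 for Sel1l and -0.41 for Spcs1 (resting NK minus splenocytes), and to -0.70 for Sel1l, -0.03 for Spcs1 and 0.03 for Prdx4 (IL-15 NK minus splenocytes).

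The design text speaks of pairs of NK samples but ties no replicate number to a pair. Deviations of same-numbered NK arrays from their group means correlated at 0.103, 0.281 and 0.066 across 11433 genes, which are not independent, and IL-15 array 1 correlated best with resting array 3 (0.154), so the numbers were not taken to pair the arrays. With the replicate block 21 members were called, 16 higher and 5 lower.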
